A study of Mus musculus with 2 samples.

Results

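The genes described here are the 10 cytokine and receptor genes *Il6*, *Il6ra*, *Il6st*, *Il12a*, *Il12b*, *Il23a*, *Il27*, *Ebi3*, *Lif* and *Osm*, listed by name for their place in the IL-6 and IL-12 type cytokine families, out of 20656 genes that could be named on the array. These genes were chosen with earlier results of these data known. They were read in RAW264.7 cells, a macrophage line made from an Abelson murine leukemia virus-induced tumour of an adult male BALB/c mouse, after treatment with IR-61, a near-infrared dye that gathers in mitochondria, or with vehicle control for 24 h. There was 1 culture and 1 single-colour Agilent array per condition, and the labels name no inflammatory stimulus in either culture. The labels give no dose. Without a second culture the spread between cultures is unknown, so the conditions could not be tested against each other and each difference compares these 2 arrays only. All 10 genes were found, each with 1 probe. The probe of *Il12b* carries an accession that the gene table does not hold, and was named because its deposited log2 values equal those given for *Il12b* in the study's source data.

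IL-12 type cytokines are pairs of subunits. *Il12b* encodes the p40 chain, which joins p35 from *Il12a* to form IL-12 and p19 from *Il23a* to form IL-23, while p28 from *Il27* joins the chain from *Ebi3* to form IL-27. The IL-6 type cytokines IL-6, LIF and oncostatin M are single chains that signal through gp130, the shared receptor chain encoded by *Il6st*, with a further chain for each ligand, which for IL-6 is the product of *Il6ra*. Activated macrophages are a main source of IL-6, IL-12 and IL-23, and gp130 passes its signal through JAK kinases and STAT3.

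The values are background-subtracted signals of the scanner software. For a difference, the 75th percentile of each array's log2 signals, 10.30 with vehicle and 10.79 with IR-61, was taken off, and the difference is IR-61 minus vehicle. Signals on the IR-61 array were generally higher, so an equal scaled value goes with a higher unscaled signal on that array. A probe counted as measured where the software marked it well above background on both arrays. The lowest signal among probes so marked was 12.8 with vehicle and 15.0 with IR-61. For a probe that missed this mark on the IR-61 array, only a bound is given, from the higher of its own signal and 15.0. Some spots above 15.0 also missed this mark. A bound leaves out the noise of a spot as well, so it is not a strict limit. Of all genes 16885 were measured on both arrays, with a median log2 difference of 0.10 and the middle 95% between −0.81 and 0.93. Of these, 235 (1.39%) were lower and 336 (1.99%) higher by 2-fold or more. The share of lower genes among those past 2-fold was 41.2%, and it was 54.2% with scaling by the median, 52.1% with quantile normalization, 52.2% with loess, 51.4% with the deposited log2 values, 54.6% with normexp background correction and 3.23% without scaling. The size of noise within an array was taken from the 399 probes printed 10 times, using on each array only those well above background. Their SD between spots on the log2 scale, as a root mean square, was 0.070 and 0.063 (vehicle and IR-61) above a log2 signal of 10, 0.178 and 0.144 between 6 and 10, and 0.347 and 0.296 under 6. The SD given beside a difference below is the one expected from this noise. For a probe below the mark the noise may be larger.

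All 10 genes were well above background with vehicle, and 6 of the 10 were with IR-61. The 4 that were not are *Il12b*, *Il12a*, *Il23a* and *Lif*, which are cytokine genes. Among all 17031 genes well above background with vehicle, 146 (0.857%) were not with IR-61. This share depends on the signal, since it was 3.91% of the 3579 genes with a log2 signal under 6 with vehicle and 0.0446% of the 13452 at 6 or more. *Il12a*, *Il23a* and *Lif* had a log2 signal under 6 and *Il12b* lay above it. *Il23a* (13.9) and *Il12a* (21.1) were near the lower end of that range, which starts at 12.8 with vehicle. A small change suffices to miss the mark there, so 3.91% is not a matched share for them. Of the 6 genes measured on both arrays, 0 were lower or higher by 2-fold or more, and 2 of the 4 bounds, those of *Il12b* and *Lif*, passed 2-fold. Counting bounds, 1.72% of the genes well above background with vehicle were lower by 2-fold or more. Crossing the mark in the opposite direction was more common. Over the whole array, 740 genes reached it on the IR-61 array alone and gave a bound from the vehicle side. Of these 740 bounds 112 were higher by 2-fold or more, while 58 of the 146 lower bounds passed 2-fold. As all 10 genes were above the mark with vehicle, none of them could cross it upwards. The 6 measured genes had a median log2 difference of 0.01, against 0.10 for all measured genes.

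**Figure D1:**
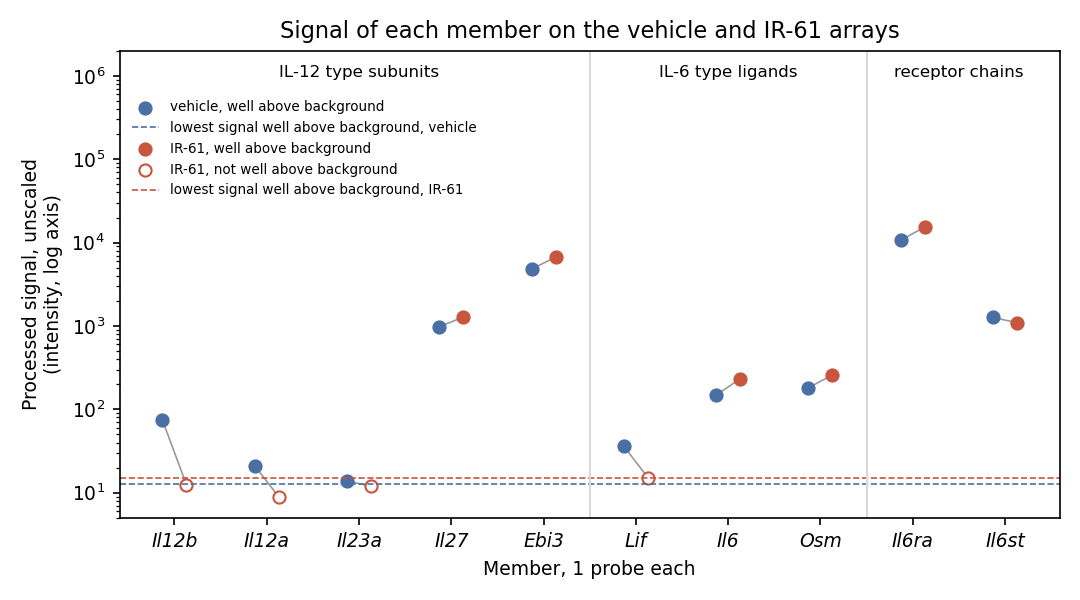
Unscaled processed signal (log axis) of the 1 probe of each gene on the vehicle array (blue) and the IR-61 array (red), with open points where the probe was not well above background and dashed lines at the lowest signal of any probe well above background (12.8 and 15.0). With IR-61, *Il12b*, *Il12a* and *Il23a* lie below both dashed lines and *Lif*, at 15.2, just above them with an open point, and the levels of different probes cannot be compared with each other.

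Both IL-12 subunits were lower on the IR-61 array, and the bound of the IL-23 subunit *Il23a* was smaller than the noise of a spot. *Il12b*, the chain shared by both cytokines, was the only one of the 10 genes printed in 10 spots. With vehicle its 10 spots ranged from 64.1 to 87.8 with a median signal of 73.3, and all 10 were well above background. With IR-61 the 9 spots used ranged from 6.73 to 16.9 with a median of 13.2, and 0 of the 9 were well above background. The spot left out carried an outlier flag, had a signal of 25.1 and was itself marked well above background. Every IR-61 spot, this one included, lay below every vehicle spot. On the scaled log2 scale the mean ± SD between spots was −4.09 ± 0.14 with vehicle and −7.15 ± 0.43 with IR-61. The IR-61 side is only a bound, which put *Il12b* 6.95-fold lower, a log2 difference of −2.80. This bound was −2.31 without scaling and −1.28 with normexp background correction.

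**Figure D2:**
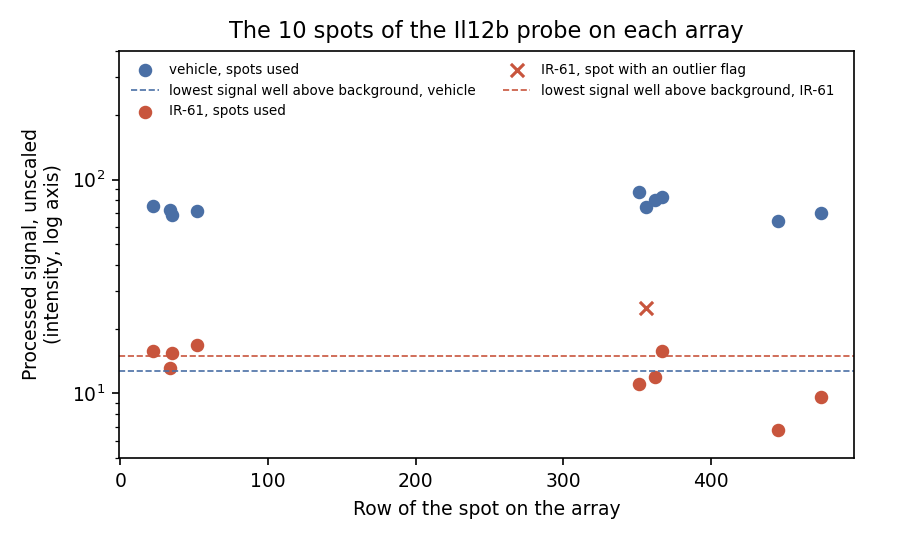
Unscaled processed signal (log axis) of each of the 10 *Il12b* spots against its row on the array, for vehicle (blue) and IR-61 (red), with a cross for the spot with an outlier flag and dashed lines at the lowest signal well above background. The vehicle spots lie between 64.1 and 87.8 and the IR-61 spots used between 6.73 and 16.9. The IR-61 spots used read from 13.2 to 16.9 in rows 22 to 52 and from 6.73 to 15.9 in rows 351 to 474, below the vehicle spots in both.

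*Il12a*, the p35 partner of p40 in IL-12, had a signal of 21.1 with vehicle and 8.94 with IR-61. Its bound was 1.97-fold lower, a log2 difference of −0.98, just short of 2-fold. The bound passed 2-fold with scaling by the median (−1.06), by the 75th percentile over detected probes (−1.02) and with quantile normalization (−1.25). It also did with loess (−1.24) and the deposited log2 values (−1.15). It fell short with normexp background correction (−0.70) and without scaling (−0.49). *Il23a*, the p19 partner of p40 in IL-23, had a signal of 13.9 with vehicle and 11.9 with IR-61. Its vehicle signal was thus close to the lowest value marked well above background. Its bound was 1.30-fold lower, a log2 difference of −0.38, and the gene gave no fold without scaling. The SD expected between spots was 0.46 for both genes. The bound of *Il23a* was smaller than this SD and that of *Il12a* larger, though only just without scaling. The SD comes from probes well above background, so it may be too small here. At their own signals, which with IR-61 missed the mark, the scaled log2 differences were −1.73 for *Il12a* and −0.71 for *Il23a*. A small bound for *Il23a* thus does not place its difference within the noise.

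The subunits of IL-27 lay close to 0. *Il27* had a signal of 982 with vehicle and 1277 with IR-61, a scaled log2 difference of −0.11 with an expected SD of 0.19. *Ebi3* had a signal of 4814 and 6694, a scaled log2 difference of −0.01 with an expected SD of 0.09. Both differences were smaller than the noise between spots, and both were within 0.2 of 0 under each setting with scaling. Without scaling, *Il27* was at 0.38 and *Ebi3* at 0.48.

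**Figure D3:**
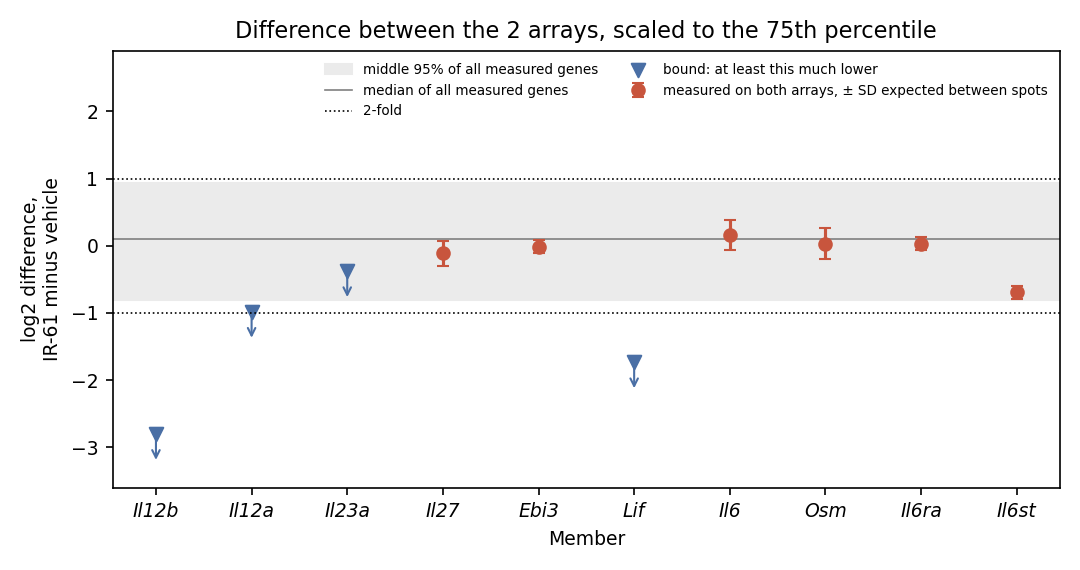
Scaled log2 difference (IR-61 minus vehicle) of each gene, with bars of ± the SD expected between spots for genes measured on both arrays (red) and triangles with arrows for bounds (blue). The grey band holds the middle 95% of the 16885 measured genes, from −0.81 to 0.93, the grey line is their median of 0.10 and the dotted lines mark 2-fold. The bounds of *Il12b* and *Lif* lie under the lower dotted line, and *Il6st* is the lowest of the measured genes.

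Among the IL-6 type ligands, *Lif* was lower and *Il6* and *Osm* were not. *Lif*, the leukemia inhibitory factor, had a signal of 36.0 with vehicle and 15.2 with IR-61. Its bound was 3.32-fold lower, a log2 difference of −1.73, against an expected SD of 0.46. The bound was −1.24 without scaling, and −0.89 with normexp background correction, short of 2-fold. *Il6* had a signal of 148 with vehicle and 233 with IR-61, a scaled log2 difference of 0.16, equal to a 1.12-fold higher value, with an expected SD of 0.23. In order from the largest fall it took rank 9608 of 16885, close to the middle of all measured genes. It was at or above 0 under each of the 9 alternatives, from 0.001 with normexp to 0.65 without scaling. *Osm*, which encodes oncostatin M and is the neighbour of *Lif* on chromosome 11 in the mouse gene table, had a signal of 181 with vehicle and 259 with IR-61. Its scaled log2 difference was 0.03 with an expected SD of 0.23, and it lay between −0.09 and 0.03 under the other settings, apart from 0.52 without scaling. Thus *Il6* and *Osm* differed between the arrays by less than the noise of a spot, while the *Lif* bound was beyond it.

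Of the receptor chains, *Il6st* was lower and *Il6ra* was not. *Il6st*, which encodes gp130, had a signal of 1264 with vehicle and 1097 with IR-61, the only measured gene of the 10 whose unscaled signal was lower with IR-61. Its scaled log2 difference was −0.69, a 1.62-fold lower value, which is 7.34 times the SD of 0.09 expected between spots. It took rank 639 of the 16885 measured genes, so 3.78% of them were lower still. The difference was between −0.78 and −0.61 under the other settings with scaling and −0.20 without scaling. The measured genes with the nearest log2 difference were *Rrp36* (−0.69), *Ddx23* (−0.69) and *Stk19* (−0.69), a likeness over 2 arrays only. *Il6ra*, the chain that binds IL-6, had a signal of 10718 with vehicle and 15345.5 with IR-61, a scaled log2 difference of 0.03 with an expected SD of 0.09. It was between −0.07 and 0.03 under the other settings, apart from 0.52 without scaling, so no direction can be given. The proteases and their helpers that release the IL-6 receptor from the cell surface were all measured, and 0 of 4 passed 2-fold. *Adam10* was at 0.51, *Adam17* at 0.02, *Rhbdf1* at −0.11 and *Rhbdf2* at −0.67 on the scaled log2 scale.

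**Figure D4:**
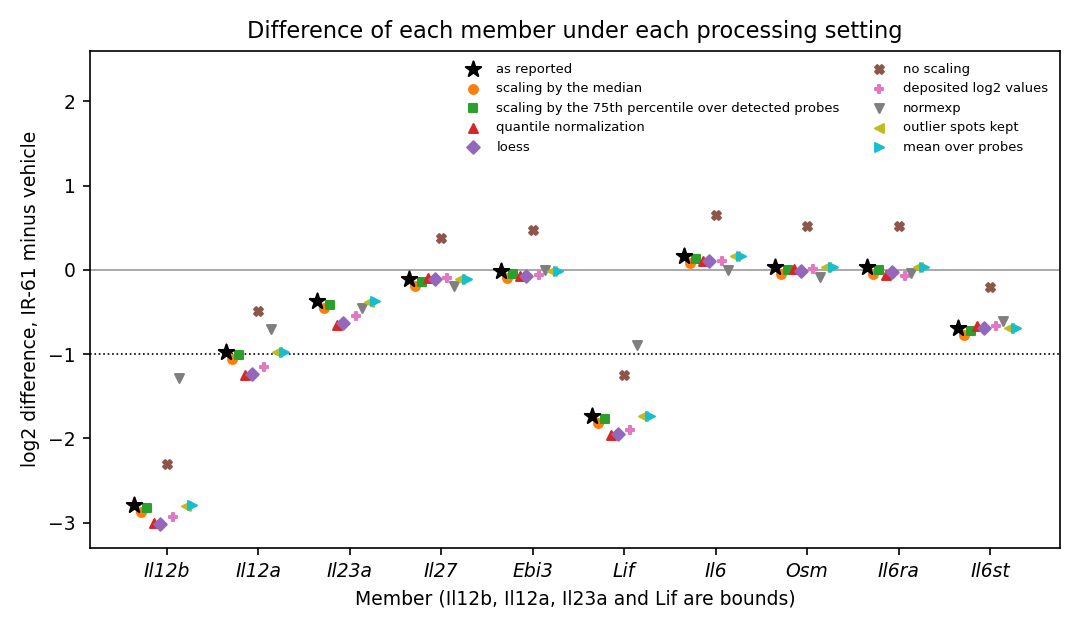
Log2 difference (IR-61 minus vehicle) of each gene as reported (star) and under 9 processing alternatives, with bounds for *Il12b*, *Il12a*, *Il23a* and *Lif* and the dotted line at 2-fold lower. *Il12b*, *Il12a*, *Il23a*, *Lif* and *Il6st* lie under 0 in each setting that gave a value, and without scaling the other 5 genes lie at 0.38 or more.

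The stretches before the transcription start are shown for *Il12b* and *Lif*, whose bounds passed 2-fold, and for *Il6*, which was not lower. They are the RefSeq sequences of the assembly GRCm38.p6, 250 bases up to the start, 5′ to 3′ on the plus strand, at chr11:44399813-44400062 for *Il12b*, chr11:4257318-4257567 for *Lif* and chr5:30012864-30013113 for *Il6*. Capitals mark matches on either strand to a κB consensus, the C/EBP forms TTGCNNAA and TTGCAA, the AP-1 form TGANTCA, the first part of the CRE, TGACG, or the TATA-like form TATANA.
Il12b: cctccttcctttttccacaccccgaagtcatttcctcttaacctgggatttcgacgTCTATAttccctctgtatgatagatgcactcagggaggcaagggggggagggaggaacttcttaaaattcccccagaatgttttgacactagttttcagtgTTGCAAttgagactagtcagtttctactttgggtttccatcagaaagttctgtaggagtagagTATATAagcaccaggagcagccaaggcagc
Lif: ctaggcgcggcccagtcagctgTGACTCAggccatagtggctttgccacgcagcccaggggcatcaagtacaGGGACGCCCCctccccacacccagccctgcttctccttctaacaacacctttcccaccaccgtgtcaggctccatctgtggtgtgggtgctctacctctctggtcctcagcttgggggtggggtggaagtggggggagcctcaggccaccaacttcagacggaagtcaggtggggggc
Il6: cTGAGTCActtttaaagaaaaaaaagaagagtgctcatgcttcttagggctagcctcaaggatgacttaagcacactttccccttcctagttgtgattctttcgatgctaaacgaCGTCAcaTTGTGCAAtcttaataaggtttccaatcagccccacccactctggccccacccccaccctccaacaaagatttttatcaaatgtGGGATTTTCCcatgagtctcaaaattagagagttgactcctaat

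In the *Il12b* window the matches are a C/EBP form TTGCAA at bases 93 to 88 before the start and TATA-like forms at 194 to 189 and at 30 to 25. The *Lif* window holds a κB match at 178 to 169 and an AP-1 match at 228 to 222. The *Il6* window holds a κB match at 44 to 35, the C/EBP form TTGCNNAA at 128 to 121, a TGACG match at 135 to 131 and an AP-1 match at 249 to 243. Among 32851 such windows of all genes, 7.25% held the κB consensus, 9.56% TTGCNNAA, 5.34% TTGCAA, 6.75% the AP-1 form, 17.8% TGACG and 22.6% the TATA-like form. The STAT form TTCNNNGAA, in 7.02% of the windows, and an IRF consensus, in 2.98%, had no match in these 3 windows. The table gave windows for 7 of the 10 genes, and of the windows not printed that of *Ebi3* held a κB match, also at 44 to 35 before the start. A κB match thus stood before *Lif*, *Il6* and *Ebi3*, and its part in their values was not tested. Only exact matches to each form were searched, so a site that departs from it is not marked. A match is a run of letters and does not show binding.

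Beyond these genes, 9 further receptor chains of both families were followed. Of these, 8 were measured, 1 was higher by 2-fold or more and 0 were lower, with a median log2 difference of 0.12 against 0.10 for all measured genes. *Lifr*, the receptor chain for LIF, had a signal of 227 with vehicle and 703 with IR-61 at its brightest probe, a log2 difference of 1.14 with an expected SD of 0.23. Its other probes were higher by less, at 0.44 and 0.29, and with the mean over probes it was 0.62. With normexp it was 0.86. *Osmr*, the chain specific to oncostatin M, was at 0.44. The chains of the IL-12, IL-23 and IL-27 receptors were *Il12rb1* at 0.35, *Il12rb2* at 0.10 and *Il27ra* at −0.30, and *Il23r* was not well above background on either array. *Cntfr*, the chain for ciliary neurotrophic factor, was at 0.15 and *Il11ra1*, the chain for IL-11, at −0.23. The lowest chain was *Il31ra* at −0.44. Of 5 further ligands, *Il11* was at 0.52, *Cntf* at 0.50, *Ctf1* at 0.36 and *Clcf1* at −0.11, none past 2-fold, and *Il31* was not well above background on either array.

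In the signalling list of JAK kinases, STAT factors, SOCS inhibitors and adaptors, 1 of 11 measured genes was lower by 2-fold or more and 0 were higher, with a median of −0.16. This was *Stat4*, which acts downstream of the IL-12 receptor, with a signal of 105 with vehicle and 67.7 with IR-61 and a log2 difference of −1.13, or −0.64 without scaling. *Grb2*, an adaptor, was highest at 0.62. *Socs3*, the feedback inhibitor that binds gp130, was at −0.80, and *Stat3* at −0.19. Of 12 genes known to respond to gp130 and STAT3, 4 were lower by 2-fold or more and 1 was higher, with a median of −0.46. Over all measured genes 1.39% were lower and 1.99% higher, with a median of 0.10. The list was chosen with earlier results of these data known, so its count is a description only. Without scaling 4 of the 12 were lower by 2-fold or more and 6 were below 0. The list median was then 0.03, against 0.59 over all measured genes. The 4 lower genes were *Icam1* (−2.67), an adhesion molecule, *Fos* (−1.87) and *Junb* (−1.71), which are AP-1 subunits, and *Bcl3* (−1.70), a member of the IκB family. All 4 also respond to other inflammatory signals. *Timp1*, a protease inhibitor, was at 1.02, and at 0.93 with scaling by the median. The remaining 7 genes lay between −0.88 for *Myc* and 0.08 for *Il10*, whose product restrains *Il12b* and *Il6* expression.

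Of 17 genes known to control *Il6* and *Il12b* transcription or mRNA decay, all measured, 2 were lower by 2-fold or more and 0 were higher, against the same shares of 1.39% and 1.99% over all measured genes, with a median of −0.32. *Nfkbiz*, an IκB family protein needed for induction of *Il6* and *Il12b*, had a signal of 139 with vehicle and 86.2 with IR-61, a log2 difference of −1.18. *Irf5*, a transcription factor of the same genes, was at −1.01. The count takes the brightest probe of each gene. *Nfkb1*, an NF-κB subunit, was at −0.27 there and at −1.25 at its other, dimmer probe. The differences of *Nfkbiz* and *Irf5* were −0.69 and −0.52 without scaling and −0.88 for both with normexp, short of 2-fold. In all 15 of the 17 genes were below 0, where 38.8% of all measured genes were. Without scaling 8 of the 17 were, with a list median of 0.17, and 7.95% of all measured genes. The list holds genes that favour *Il6* and *Il12b* expression and genes that limit it, so the count gives no joint direction. It too was chosen with earlier results of these data known. *Jun*, an AP-1 subunit, was highest at 0.42, and *Zc3h12a*, an RNase that degrades *Il6* and *Il12b* mRNA, was at −0.95. Housekeeping genes had a median of −0.09 over 8 genes, from −0.48 for *Ywhaz* to 0.80 for *Hprt*, which shows the range of genes that are often taken as constant.

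**Figure D5:**
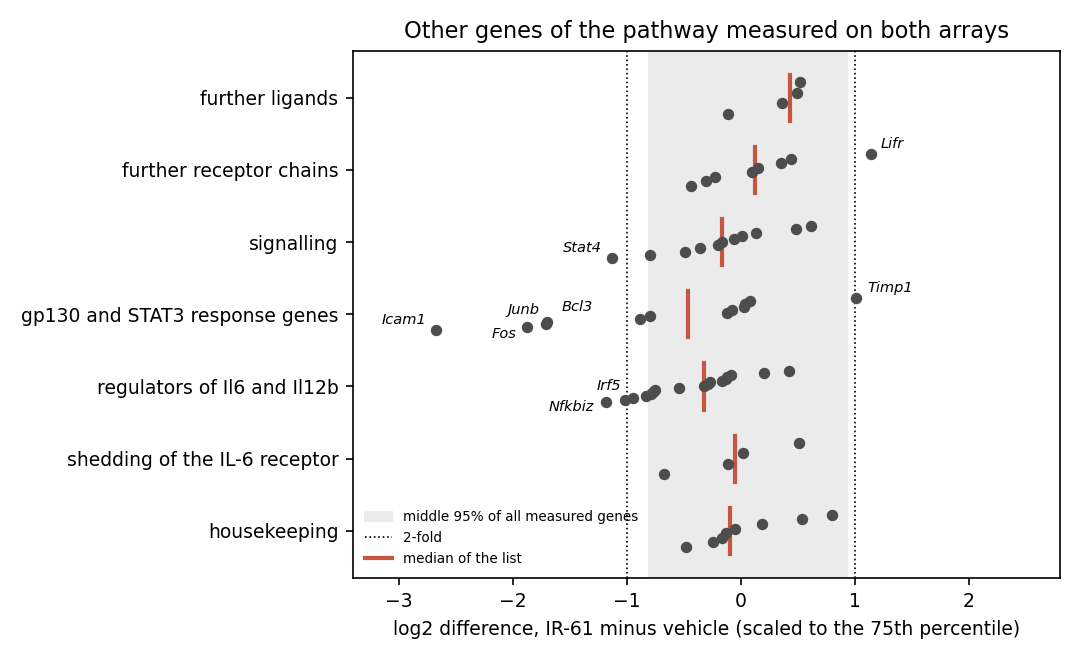
Scaled log2 difference (IR-61 minus vehicle) of each gene of 7 lists that was measured on both arrays (points, with the list median in red), the middle 95% of all measured genes (grey) and 2-fold (dotted lines). *Lifr* is the receptor chain beyond 2-fold higher, and *Icam1*, *Fos*, *Junb* and *Bcl3* the response genes beyond 2-fold lower.

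Macrophage markers were present, since 9 of the 10 in the list had a named probe and all 9 were well above background on both arrays, with log2 differences from −0.98 for *Cd14* to 1.03 for *Adgre1*. Markers of other cell types were also read above background. This held for 4 of 5 T cell, 5 of 5 B cell, 5 of 5 fibroblast, 2 of 4 epithelial, 3 of 3 endothelial, 3 of 4 dendritic cell and 4 of 4 neutrophil markers with a named probe, in both conditions. *Cd3g*, *Epcam*, *Cdh1* and *Xcr1* missed that mark on both arrays. The fibroblast marker *Col1a1* had a signal of 27148 with vehicle and 58670.1 with IR-61. List medians of these other markers lay between −0.46 and 0.51, and *Ms4a1* (−1.46) and *Cd79b* (−1.09) were lower by 2-fold or more. The part of these markers in the results above was not tested. In a culture measured in bulk, fewer cells that make a cytokine and less RNA per cell cannot be told apart.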

How the data were processed

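Total RNA of 1 vehicle and 1 IR-61 culture was hybridized to single-colour Agilent mouse arrays. The authors deposited the intensity of each spot, background-subtracted and detrended within the array by Agilent Feature Extraction (11.0.1.1 in the file headers, 11.0.0.1 in the submitters' processing notes), with other columns of 0/1 flags, and a table of log2 values whose making is not given in the sources used here. Both columns of that log2 table share their quartiles.

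Without control spots and flagged outlier spots, log2 intensities were averaged per probe and scaled to the 75th percentile of each array. No spot was saturated. Probes were named by RefSeq accession through a gene table of GRCm38.p6, used for names and neighbours (the array design gives another assembly). This named 27225 of 39419 probes. A gene takes its brightest probe, and 5473 genes had several. A probe with several spots counts as well above background where most of its spots are. The genes named are the 10 members, in each list the genes past 2-fold with its highest and lowest gene, at most 6 a list, and the 3 genes nearest to the member with the largest measured difference. Further genes were named for their role, and 1 receptor chain outside the 9 counted is not reported here. The members and lists were chosen with earlier results of these data known.

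As alternatives the values were scaled by the median or by the 75th percentile of detected probes, quantile normalized, adjusted by loess or left unscaled. Others were the deposited log2 values, normexp with an offset of 50 on the median spot signal, outlier spots kept, the mean over probes, a 3-fold limit, no filter on dim probes and a signal of at least 50. For normexp, 4 IR-61 spots with a background above their signal were given the median background. The number of arrays limits the precision. The steps were tested on simulated data. Python 3.11.15 (numpy 2.4.6, pandas 2.3.3, statsmodels 0.14.6, matplotlib 3.10.9) and R 4.3.3 (limma 3.58.1) were used.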

Additional observations from a re-analysis of the deposited data

How the results depend on the processing

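No paired analysis was possible because the vehicle and IR-61 groups hold a single array each, and no test was made. The number of the 10 genes measured on both arrays and lower by 2-fold or more was 0 in 11 of the 12 alternatives and 3 without a filter on dim probes, where *Il12b*, *Il12a* and *Lif* are taken at their own signals. The number of bounds past 2-fold was 2, 3 with the other scalings apart from none and with the deposited log2 values, where *Il12a* joined, and 1 with normexp, where *Lif* was lost. It has no value without a filter on dim probes or with a signal of at least 50. Normexp adds an offset to both arrays, which shrinks differences between low signals. Of all genes measured, 235 were past 2-fold lower, against 72 without scaling, 149 with normexp, 64 with a 3-fold limit, 441 without a filter on dim probes, and between 195 and 295 under the other alternatives. Without scaling the median gene stood at 0.59 in place of 0.10. *Il27* and *Ebi3* were then above 0 and under the other settings below it, and *Il6ra* and *Osm* took both signs, each within 0.1 of 0 with scaling. *Il23a*, *Il12a* and *Lif* each rest on 1 spot of low signal.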

Other observations

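At a log2 signal of 6 or more with vehicle, 6 genes of 13452 fell short of the background mark on the IR-61 array, and *Il12b* was 1 of them. The others, named after their values were seen, were *Cd209b* with a log2 bound of −3.61, *L3mbtl1* (−3.20), *Klk7* (−2.92), *Mpp2* (−2.88) and *Krt32* (−2.60). *Cd209b* encodes a C-type lectin receptor of macrophages.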
